A study of Mus musculus with 36 samples.

Results

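Ephrins and their Eph receptors were examined in RNA sequencing libraries of mouse pancreatic fibroblasts of the C57BL/6 strain. The genes described are 4 ephrin ligands (Efna1, Efna5, Efnb1 and Efnb2) and 6 Eph receptors (Epha2, Epha3, Epha4, Ephb2, Ephb3 and Ephb4). They were taken by symbol from the 39017 genes of the count table, where they filled 11 rows, because Efna5 was listed under 2 identifiers. One of these identifiers (ENSMUSG00000090425) had 0 counts in the 36 libraries, and the other is the one described. All 10 genes were among the 14439 that passed the filter on low counts.

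The 36 libraries formed 9 groups of 4. One group was fibroblasts cultured alone (mono-culture), whose titles read PSC, an abbreviation the labels do not spell out. The other 8 groups were fibroblasts kept for 48 h in direct co-culture with a tumour line, after which tumour cells were removed by sorting on their GFP. Of these lines, 7 were sub-clones of a tumour (E, H, K, M, N, T and V) and the eighth was KPC1, whose name is not spelled out either. The labels do not state whether the mono-culture passed through the sorter, or whether libraries of a group came from separate cultures, so the p-values measure the spread between libraries, which may be technical. Library totals ran from 12532122 to 21985538 counts. The co-culture libraries were numbered in 4 runs of 8 lines and the mono-culture libraries came last in the numbering, so that position in the series and mono-culture cannot be told apart.

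Ephrins are ligands that stay attached to the cell that makes them, and Eph receptors form a large family of receptor tyrosine kinases, so the pair signals only where cells touch. The A-type ephrins are held by a lipid anchor and mainly bind EphA receptors, whereas B-type ephrins span the membrane and mainly bind EphB receptors. There are exceptions, such as EphA4, which also binds B-type ephrins, and EphB2, which also binds ephrin-A5. The receptor sends a forward signal through exchange factors and adaptor proteins that act on the cytoskeleton, and the ligand can send a reverse signal into its own cell. The outcome is often repulsion or sorting of cells at a boundary, and in other settings adhesion.

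The 10 fibroblast markers, which include collagens, Pdgfra and Pdgfrb, were detected in every group, with a summed level of 18652 to 41614 CPM (counts scaled to library size with TMM factors) per library. The epithelial markers, 12 genes with Epcam, Cdh1 and keratins among them, summed to 1.06 to 1.87 CPM in the mono-culture libraries and to 18.7 to 803 CPM in the co-culture libraries. Among these markers 8 passed the filter on low counts, and most of the sum was Krt8, Krt18 and Krt19, with 50148, 89077 and 25212 counts over the 36 libraries. Epcam, Cldn4, Cldn7 and Esrp1 had 35, 3, 67 and 8 counts. Endothelial markers summed to 6.13 to 14.0 CPM and immune markers to 1.44 to 16.3 CPM per library, with Cldn5, Tie1 and Cd3e at 0 counts in the 36 libraries. In bulk RNA a lower level from fewer cells of a type and from less RNA per cell cannot be told apart.

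The libraries of each of the 8 co-cultures held a higher level of the receptor gene Epha4 than mono-culture, by 2.49 to 8.41 times, and of the ligand gene Efnb1, by 1.55 to 2.55 times. Epha2 was higher with 5 lines, by 1.61 to 3.17 times, and its ligand gene Efna1 with 6, by 1.46 to 2.17 times. Epha4 and Efna1 moved with the epithelial markers within the lines (r = 0.82 and 0.70), whose part was not tested. The ligand gene Efna5 fell with 5 lines, to 0.603 to 0.686 times its level in mono-culture. Ephb3 fell with clones H and V and KPC1, and was higher with clone K in a call that passed under 5 of 11 alternatives. Efnb2 rose with clone V and passed with none of the other 7 lines.

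These values come from the comparison of each co-culture with mono-culture by edgeR, with p-values adjusted by Benjamini-Hochberg over all genes tested. Of the 10 ephrin and Eph genes, 7 passed with clone V (5 higher and 2 lower), where 58.3% of all genes tested passed. With clone H 6 passed (4 higher and 2 lower), beside 54.2% of all genes. With KPC1 5 passed (4 higher and 1 lower), beside 59.0%, and with clone N 5 passed (4 higher and 1 lower), beside 39.0%. With clone T 4 passed, all higher, beside 49.8%, and with clone K 3, all higher, beside 19.1%. With clone E 3 were higher and 1 was lower, beside 16.5% of all genes higher and 15.5% lower. With clone M 2 were higher and 1 was lower, beside 12.2% higher and 10.8% lower. For the mean of the 7 clones against mono-culture 5 genes passed (4 higher and 1 lower), beside 49.2% of all genes. The median log2 fold change of the 10 genes in that comparison was 0.31, beside 0.0058 for all genes tested. These comparisons share the 4 mono-culture libraries. Epha4 and Efnb1 were higher with each of the 8 lines, as were 3.42% of the genes tested, and none of the 10 was lower with each, as 3.19% were. Ephb3 passed in both directions, higher with 1 line and lower with 3, and 5.35% of the genes tested did so.

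**Figure D1:**
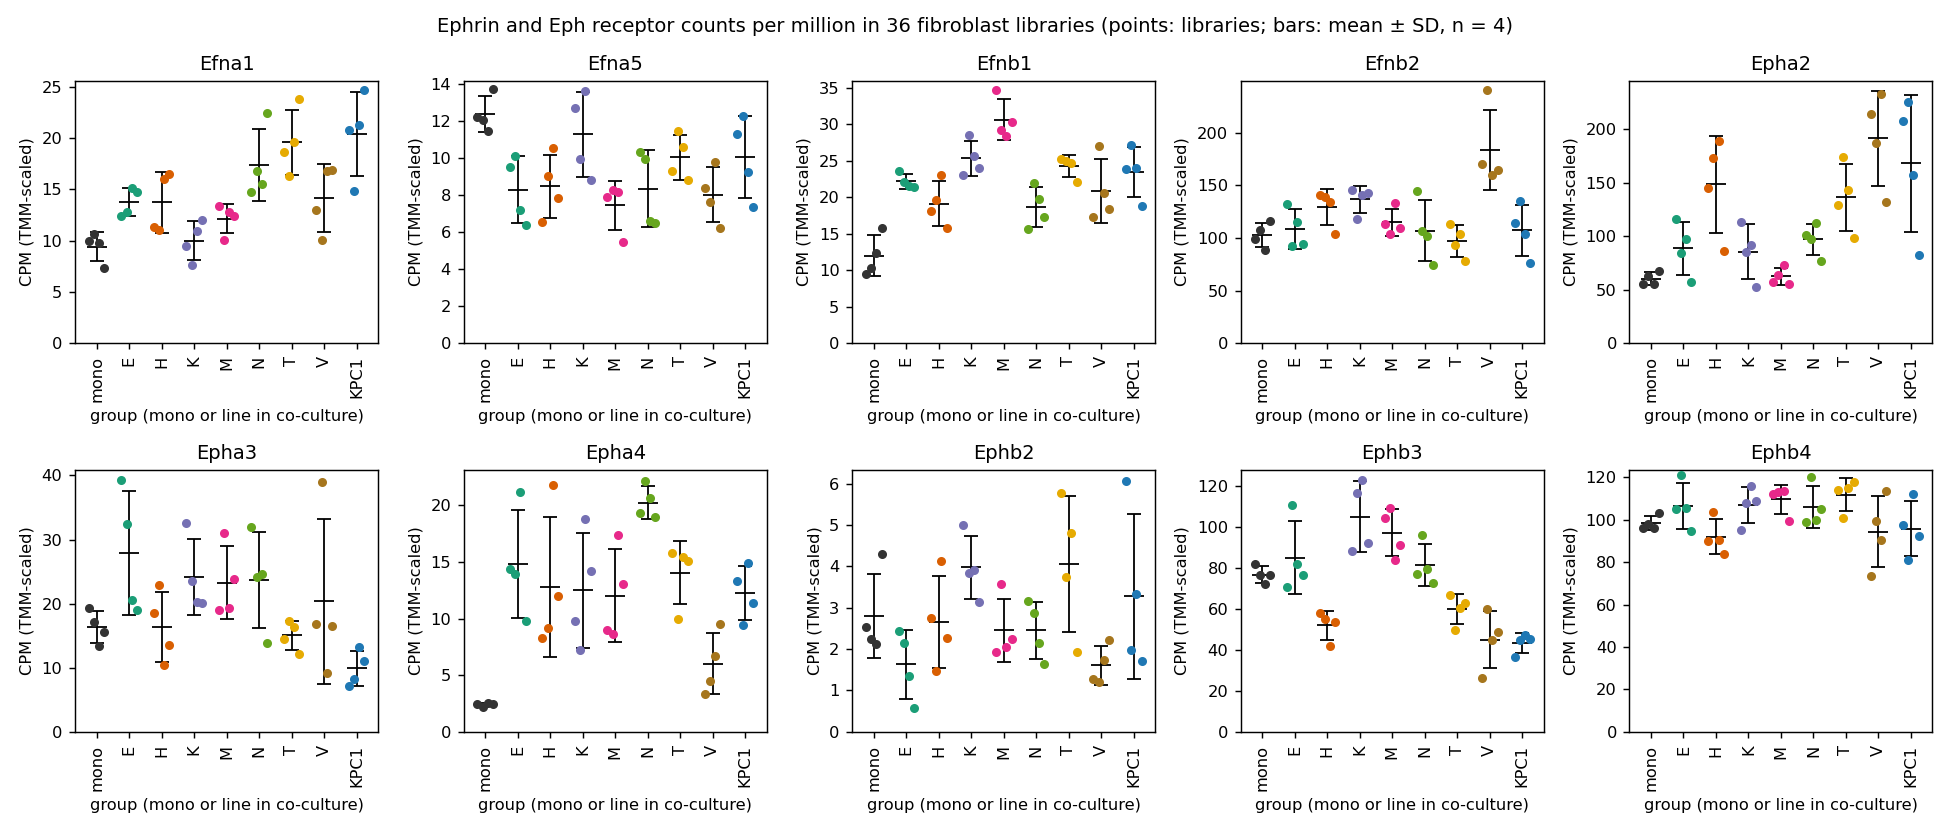
Level of each ephrin and Eph receptor in CPM (vertical axis, TMM-scaled, from 0) in the 9 groups of libraries; points are libraries and bars the mean ± SD (n = 4). Epha4 sits between 2.20 and 2.58 CPM in mono-culture and above that in each co-culture library, whereas Ephb4 lies between 73.6 and 121 CPM with every group overlapping.

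**Figure D2:**
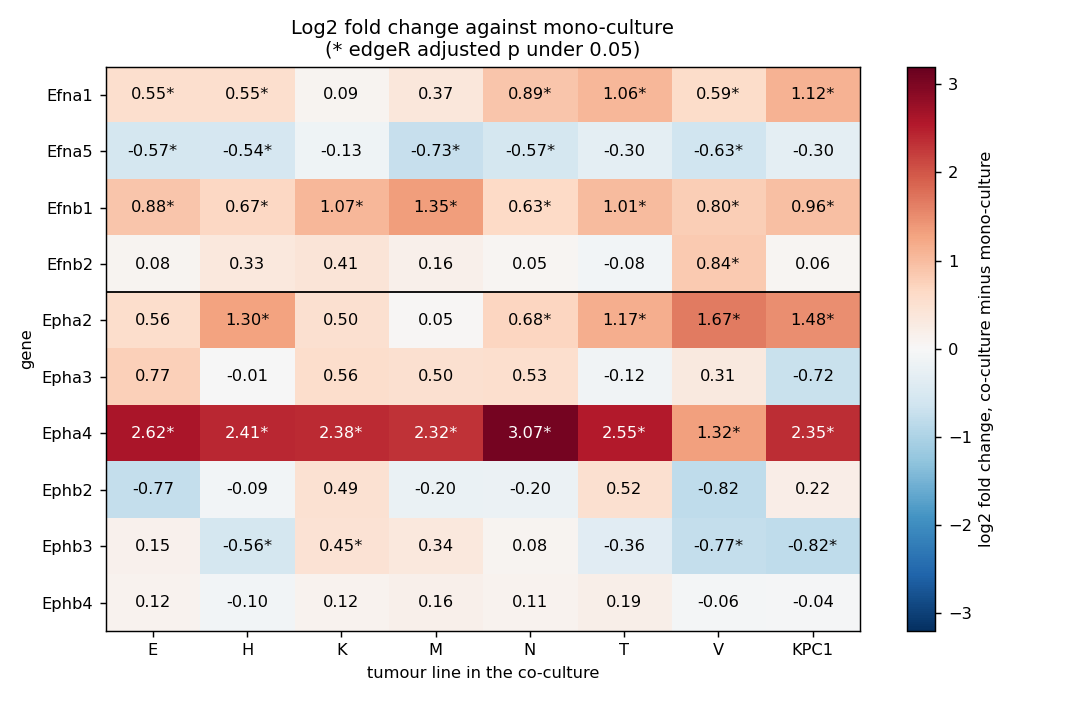
Log2 fold change of each gene (rows; ligands above the line, receptors below) between each co-culture (columns) and mono-culture, with a star where the edgeR adjusted p was under 0.05. Epha4 and Efnb1 are starred in the 8 columns, and Epha4 holds the highest value of each column (2.32 to 3.07) but that of clone V, where Epha2 (1.67) is above it (1.32).

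Promoter sequences are given for the pair that was higher with each of the 8 lines, Epha4 and Efnb1, and for Epha2 and Ephb3. Epha2 and Ephb3 are the receptors whose levels ran most opposite to each other over the 36 libraries among the 10 genes. Each sequence runs from 250 bases before to 50 bases after the RefSeq start site on GRCm38.p6. It is written 5′ to 3′ on the strand of the gene, and capitals mark motif matches on either strand.
Epha4, chr1:77515039-77515338, minus strand: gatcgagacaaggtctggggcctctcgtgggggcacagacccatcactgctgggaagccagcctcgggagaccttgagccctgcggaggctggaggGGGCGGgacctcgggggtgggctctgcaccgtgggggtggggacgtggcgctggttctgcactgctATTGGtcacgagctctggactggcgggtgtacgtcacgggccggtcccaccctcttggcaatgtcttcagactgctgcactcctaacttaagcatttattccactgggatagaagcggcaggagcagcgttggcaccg
Efnb1, chrX:99135811-99136110, plus strand: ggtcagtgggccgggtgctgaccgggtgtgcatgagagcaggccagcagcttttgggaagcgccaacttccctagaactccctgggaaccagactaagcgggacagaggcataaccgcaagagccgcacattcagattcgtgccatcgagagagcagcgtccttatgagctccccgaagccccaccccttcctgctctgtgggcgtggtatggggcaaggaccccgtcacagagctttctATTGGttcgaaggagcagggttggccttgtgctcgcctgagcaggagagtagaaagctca
Epha2, chr4:141300971-141301270, plus strand: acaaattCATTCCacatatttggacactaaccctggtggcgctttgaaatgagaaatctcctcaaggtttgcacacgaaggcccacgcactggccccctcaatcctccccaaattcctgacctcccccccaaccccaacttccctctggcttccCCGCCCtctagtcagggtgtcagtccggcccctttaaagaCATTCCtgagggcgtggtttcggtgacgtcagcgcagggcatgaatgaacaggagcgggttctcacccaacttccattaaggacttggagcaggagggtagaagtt
Ephb3, chr16:21204545-21204844, plus strand: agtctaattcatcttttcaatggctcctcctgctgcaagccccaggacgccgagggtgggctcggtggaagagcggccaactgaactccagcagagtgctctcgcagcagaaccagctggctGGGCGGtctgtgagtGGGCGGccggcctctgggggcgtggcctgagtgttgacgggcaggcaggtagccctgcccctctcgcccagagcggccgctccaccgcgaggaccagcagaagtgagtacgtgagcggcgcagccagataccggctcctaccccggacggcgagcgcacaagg
The letters searched were TGANTCA (AP-1), GGAATG (TEAD), GGGCGG (GC box), CCAAT (NF-Y) and TATAAA (core promoter). The Epha4 promoter held 1 GC box and 1 NF-Y match, and the Efnb1 promoter 1 NF-Y match, letters found in 35.7% and 37.4% of the 32851 promoters of the same length. The Epha2 promoter held 2 TEAD matches, letters present in 14.7% of promoters, and 1 GC box match. The Ephb3 promoter held 2 GC box matches. AP-1 letters (7.81% of promoters) and core promoter letters (13.6%) were in none of these 4 windows, and the matches are a description of the letters only.

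Among the ligands, Efnb1 (ENSMUSG00000031217, chrX:99136130-99148991, plus strand, mm10) encodes ephrin-B1, a transmembrane ligand of EphB receptors. Its level in mono-culture was 9.46, 10.3, 12.4 and 15.9 CPM in the 4 libraries. With clone M it was 34.7, 29.3, 28.4 and 30.3 CPM, the highest group mean of the 9, and with clone K 22.997, 28.6, 25.7 and 24.1 CPM. With clone T it was 25.3, 24.99, 24.7 and 22.1 CPM and with clone E 23.6, 22.1, 21.6 and 21.4 CPM. In these 4 co-cultures every library lay above the highest mono-culture library.
With KPC1 the 4 libraries held 23.8, 27.2, 24.02 and 18.8 CPM and with clone V 17.3, 27.1, 20.6 and 18.4 CPM, also with no overlap. With clone H they held 18.1, 19.7, 23.01 and 15.7 CPM and with clone N 15.7, 21.9, 19.7 and 17.3 CPM, and in each of these 1 library lay within the mono-culture range. The log2 fold change was 1.35 ± 0.15 (SE) with clone M (edgeR adjusted p = 4.3e-08) and 0.63 ± 0.15 with clone N (adjusted p = 9.3e-04), the ends of the range. For the mean of the clones it was 0.92 ± 0.12 (adjusted p = 1.9e-07, higher than every mono-culture library in 26 of 28). Clone M was the highest of the 8 co-cultures within each of the 4 replicate numbers.
Against the epithelial sum within the lines, the level of Efnb1 had r = -0.20 over the 32 co-culture libraries, positive in 2 of 8 lines. With only the 2 libraries of lowest epithelial sum kept from each line, Efnb1 passed with 7 of 8 lines. With clone N the log2 fold change was 0.54 (edgeR adjusted p = 0.063). The co-culture libraries kept held epithelial sums of 18.7 to 499 CPM, so this fit did not take the epithelial signal away.

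Efna1 (ENSMUSG00000027954, chr3:89271733-89281142, minus strand) encodes ephrin-A1, a lipid-anchored ligand and a main partner of EphA2. Mono-culture libraries held 9.96, 10.6, 9.81 and 7.31 CPM. With KPC1 they held 20.8, 14.8, 21.3 and 24.7 CPM, with clone T 18.6, 16.3, 19.6 and 23.8 CPM and with clone N 14.8, 16.8, 15.5 and 22.4 CPM. None of these 12 co-culture libraries overlapped with mono-culture. The log2 fold changes were 1.12 ± 0.18 with KPC1, 1.06 ± 0.18 with clone T and 0.89 ± 0.18 with clone N (SE; edgeR adjusted p = 5.3e-06, 1.9e-05 and 2.7e-04).
Clones V, E and H gave smaller changes that also passed, 0.59, 0.55 and 0.55 (adjusted p = 0.0068, 0.022 and 0.013). Clone K libraries held 9.42, 7.60, 10.9 and 12.01 CPM and overlapped with mono-culture, and clone K was the lowest of the 8 co-cultures within each replicate number. For clones K and M the log2 fold changes of 0.09 and 0.37 did not pass (adjusted p = 0.79 and 0.16).
Efna1 moved with the epithelial sum within the lines (r = 0.70 over 32 libraries, positive in 8 of 8 lines, as a description), and the part of these markers' source in its level was not tested. With the 2 libraries of lowest epithelial sum per line it passed with 3 lines, clones N and T and KPC1, and for the mean of the clones the log2 fold change was 0.41 (adjusted p = 0.023). The calls for clones E and H were lost without mono-culture replicate 4, at 0.43 and 0.44 (adjusted p = 0.099 and 0.059), and without replicate 3 or 4 of the clone itself.

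Efna5 (ENSMUSG00000048915, chr17:62604184-62881317, minus strand), which encodes another lipid-anchored ligand, ephrin-A5, was the ligand that fell. Mono-culture held 12.2, 12.04, 11.5 and 13.8 CPM, and clone M 7.88, 8.26, 8.19 and 5.44 CPM. Clone V held 8.39, 7.65, 9.80 and 6.22 CPM and clone N 10.3, 9.96, 6.58 and 6.52 CPM. In these co-cultures, and with clones E (6.38 to 10.1 CPM) and H (6.52 to 10.5 CPM), each library lay below the lowest mono-culture library.
The log2 fold changes of these 5 lines ran from -0.73 ± 0.19 (clone M, adjusted p = 0.0056) to -0.54 ± 0.19 (clone H, adjusted p = 0.016). With clones K and T and with KPC1 the values were -0.13, -0.30 and -0.30 and did not pass (edgeR adjusted p = 0.68, 0.19 and 0.17). For the mean of the clones the fold change was -0.50 ± 0.14 (adjusted p = 0.0035, below every mono-culture library in 25 of 28).
The library numbered replicate 4 was the lowest of its line in 7 of 8 lines. Efna5 no longer passed with clones E, M and N when each line kept its 2 libraries of lowest epithelial sum (-0.59, -0.63 and -0.55, edgeR adjusted p = 0.093, 0.090 and 0.086). The calls for clones E and N were lost without replicate 3 or 4 of the clone (adjusted p = 0.076 and 0.077 for clone E, 0.080 and 0.082 for clone N), that for clone H without its replicate 1 (adjusted p = 0.068), and those for clones E and H without mono-culture replicate 4 (adjusted p = 0.060 and 0.052).

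Efnb2 (ENSMUSG00000001300, chr8:8617434-8661242, minus strand) encodes ephrin-B2, the transmembrane partner of EphB4, and was the ligand with the highest level per gene length. Clone V libraries held 169.8, 241, 160.2 and 165 CPM, against 98.8, 108, 88.6 and 116 CPM in mono-culture, with no overlap, and replicate 2 stood above the other 3. The log2 fold change was 0.84 ± 0.17 (edgeR adjusted p = 9.9e-05). Clone V was the highest of the 8 co-cultures within each replicate number. Its mean epithelial sum was 101 CPM, the lowest of the 8 lines, and the part of these markers' source in the Efnb2 level was not tested.
Clone K libraries held 146, 118, 141 and 142 CPM, each above mono-culture, but the log2 fold change of 0.41 did not pass (adjusted p = 0.089). It passed under 3 of 11 alternatives, the replicate block among them. With the other 6 lines the values lay between -0.08 (clone T) and 0.33 (clone H), and none passed.

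Among the receptors, Epha4 (ENSMUSG00000026235, chr1:77367185-77515088, minus strand) had the highest log2 fold change for the mean of the clones. EphA4 can bind ligands of both classes. Mono-culture libraries held 2.42, 2.20, 2.58 and 2.42 CPM, from 34 to 53 counts each. Clone N libraries held 19.3, 22.1, 20.6 and 18.9 CPM, the highest mean. Clone E libraries held 14.4, 13.9, 21.2 and 9.76 CPM and clone T libraries 15.8, 9.94, 15.5 and 15.05 CPM. No library of these groups came near the mono-culture level.
Clone H libraries held 8.32, 9.14, 21.8 and 11.95 CPM and clone K libraries 9.80, 7.21, 18.8 and 14.2 CPM. Clone M libraries held 8.99, 8.62, 17.4 and 13.1 CPM and KPC1 libraries 13.3, 9.46, 14.9 and 11.4 CPM. Replicate 3 was the highest of the 4 in each of these 4 groups. Clone V libraries, the lowest of the co-cultures, held 3.36, 4.52, 6.70 and 9.51 CPM and still lay above mono-culture.
The log2 fold change was 3.07 ± 0.34 with clone N (edgeR adjusted p = 3.0e-08), 1.32 ± 0.34 with clone V (adjusted p = 0.0014), and between 2.32 and 2.62 with the other 6 lines. For the mean of the clones it was 2.38 ± 0.29, a fold of 5.21 (adjusted p = 8.5e-08, higher in 28 of 28 libraries). Clone V was the lowest of the 8 co-cultures within each replicate number.

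The Epha4 level moved with the epithelial markers. Within the lines its log2 CPM rose by 0.36 for each log2 unit of the epithelial sum, with r = 0.82 over the 32 co-culture libraries and a positive r in 8 of 8 lines (a description over libraries that share lines and scaling). In the library with the lowest epithelial sum, clone K replicate 2 at 18.7 CPM, Epha4 was at 7.21 CPM. In clone V replicates 1 and 2, with epithelial sums of 35.9 and 29.1 CPM, it was at 3.36 and 4.52 CPM. These values exceeded the mono-culture range of 2.20 to 2.58 CPM. With the 2 libraries of lowest epithelial sum per line Epha4 passed with each of the 8 lines, at log2 fold changes between 0.72 (clone V, edgeR adjusted p = 0.012) and 3.04 (clone N). The clone N libraries kept held epithelial sums of 436 and 499 CPM, against 1.06 to 1.87 CPM in mono-culture. For the mean of the clones the log2 fold change in this fit was 2.00, against 2.38 with all libraries. On log2(RPKM + 1), a scale that understates the change of low genes, the value was 1.09 for the mean of the clones and 0.44 with clone V (limma adjusted p = 3.0e-07 and 0.049). The part of these markers' source in the Epha4 level was not tested.

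**Figure D3:**
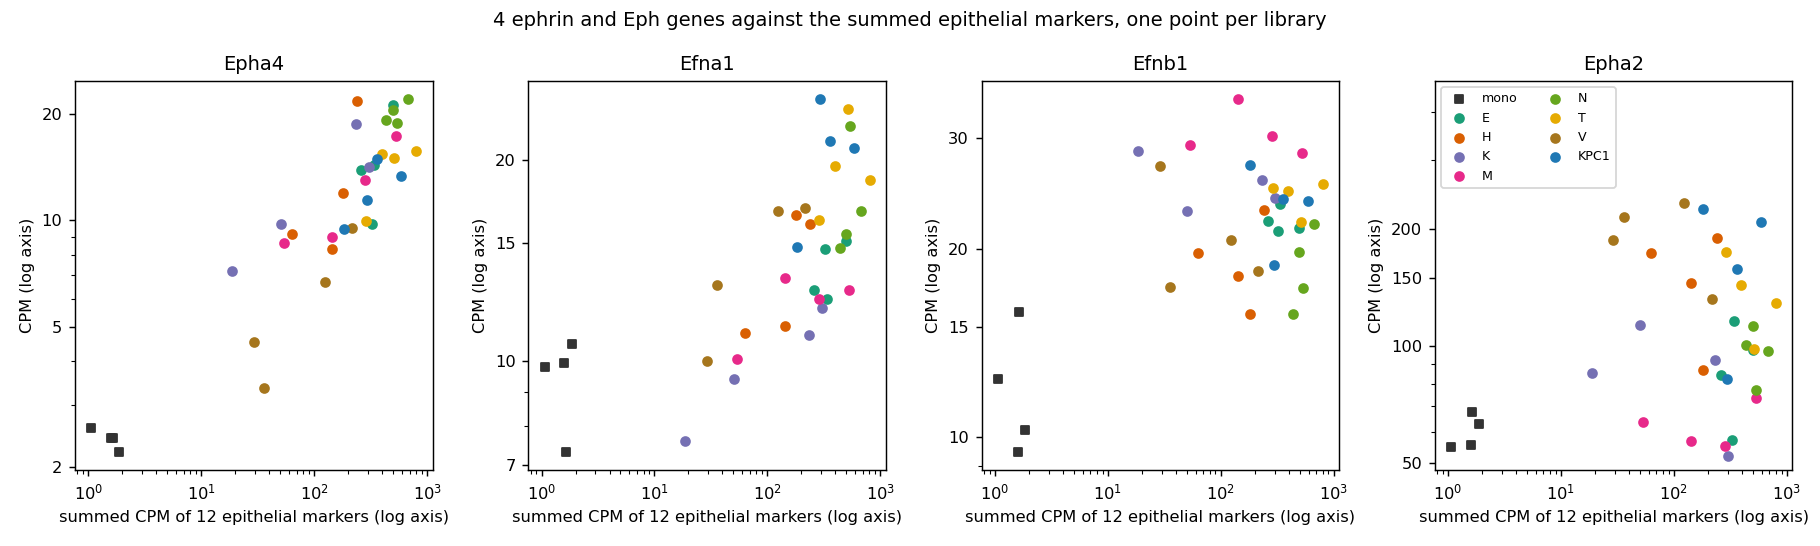
Level of 4 genes in CPM (vertical, log axis) against the summed CPM of 12 epithelial markers (horizontal, log axis), one point per library and one colour per group, with mono-culture as squares. Epha4 and Efna1 rise from left to right among the co-culture libraries, more than Efnb1 and Epha2 (r within lines 0.82, 0.70, -0.20 and -0.22).

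Epha2 (ENSMUSG00000006445, chr4:141301240-141329384, plus strand) encodes a receptor of ephrin-A1 found on many epithelial cells. It had the highest mean level per gene length of the family with clones H, T and V and KPC1, and with clone N it was close to Ephb4. Mono-culture libraries held 55.6, 63.0, 55.1 and 67.8 CPM. Clone V libraries held 215, 187, 234 and 132 CPM and KPC1 libraries 208, 225, 158 and 82.4 CPM. Clone H libraries held 145, 174, 189 and 86.7 CPM. Each of these 12 libraries lay above mono-culture, and in each of the 3 groups replicate 4 was the lowest.
Clone T libraries held 129, 174, 144 and 98.1 CPM and clone N libraries 101, 97.3, 113 and 77.1 CPM, again with no overlap. Clone M libraries held 56.9, 63.9, 73.4 and 55.5 CPM and overlapped with mono-culture. The log2 fold changes that passed were 1.67 ± 0.27 (clone V, edgeR adjusted p = 4.8e-06), 1.48 ± 0.27 (KPC1), 1.30 ± 0.27 (clone H), 1.17 ± 0.27 (clone T) and 0.68 ± 0.26 (clone N, adjusted p = 0.040). The values for clones E, K and M were 0.56, 0.50 and 0.05 and did not pass. That for clone E passed under 2 of 11 alternatives, the replicate block among them.
Replicate 4 held the lowest Epha2 level of its line in 8 of 8 lines. The order of the lines was much the same within each number: clone V was the highest in replicates 1, 3 and 4 and KPC1 in replicate 2, and clone M was the lowest in replicates 1, 2 and 3 and clone K in replicate 4. The highest line exceeded the lowest 3.78, 3.53, 3.18 and 2.53 times in replicates 1 to 4. Against the epithelial sum within the lines Epha2 had r = -0.22, positive in 3 of 8. The call for clone N was lost under 3 of 11 alternatives (adjusted p up to 0.080) and in 10 of the 36 fits that left out 1 library, with values of 0.61 (without clone N replicate 3, adjusted p = 0.10) to 0.73 (without mono-culture replicate 4, adjusted p = 0.055).

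Ephb3 (ENSMUSG00000005958, chr16:21204755-21223305, plus strand), which encodes a receptor of B-type ephrins with a known part in cell positioning, passed in both directions. Mono-culture libraries held 81.9, 76.3, 71.8 and 76.4 CPM. KPC1 libraries held 36.4, 44.8, 47.3 and 45.2 CPM and clone V libraries 26.5, 60.0, 45.0 and 48.4 CPM. Clone H libraries held 57.8, 54.8, 41.8 and 53.6 CPM. All 12 lay below mono-culture.
Clone T libraries held 66.7, 49.9, 60.2 and 62.7 CPM, also below mono-culture. Clone K libraries held 88.0, 116, 123 and 92.2 CPM and clone M libraries 104, 109, 84.0 and 91.1 CPM, and all 8 lay above mono-culture. Clones E and N overlapped with it, at 70.5 to 111 and 72.4 to 96.1 CPM.
The log2 fold change was -0.82 ± 0.17 with KPC1 (edgeR adjusted p = 9.4e-05), -0.77 ± 0.17 with clone V (adjusted p = 2.0e-04) and -0.56 ± 0.17 with clone H (adjusted p = 0.0049). It was 0.45 ± 0.16 with clone K (adjusted p = 0.0495), a call that was lost in 24 of the 36 fits that left out 1 library, and under 6 of the 11 other alternatives (adjusted p 0.0093 to 0.23 over the 11), the lowest value of the former being 0.37 without clone K replicate 3 (adjusted p = 0.18). With clones M and T the values of 0.34 and -0.36 did not pass (adjusted p = 0.14 and 0.072), and that for clone T passed under 5 of 11 alternatives.
The summed fibroblast markers had their highest group means with clones K and M, 35034 and 34256 CPM, and their lowest with clone V and KPC1, 24278 and 22393 CPM, against 26770 CPM in mono-culture. These 10 markers did not move together: with KPC1 4 were higher and 6 lower, beside 59.0% of all genes passing. Fn1 and Col1a1 held the most counts of the sum, 4959902 and 4421668 over the 36 libraries. Over the 36 libraries Ephb3 followed that sum with r = 0.78, and within the groups with r = 0.57, a description of libraries that share their line and scaling. Its part in the Ephb3 differences was not tested. With the 2 libraries of lowest epithelial sum per line, the calls for clones H and K were lost (-0.45 and 0.42, adjusted p = 0.12 and 0.23).

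**Figure D4:**
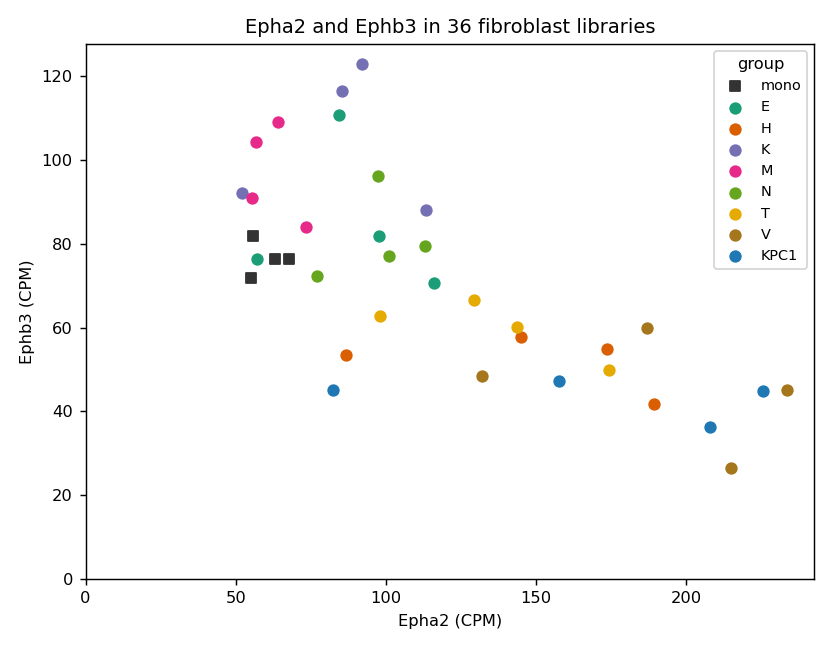
Epha2 (horizontal) against Ephb3 (vertical) in CPM, both axes from 0, one point per library and one colour per group, with mono-culture as squares. Clone V and KPC1 libraries lie to the lower right, except KPC1 replicate 4 at 82.4 CPM of Epha2, and clone M libraries to the upper left (r = -0.73 over the 36 libraries on the log2 scale).

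Epha2 and Ephb3 had the most negative correlation of the 45 pairs of these genes over the 36 libraries (r = -0.73), and within the groups the value was -0.22. The highest was that of Ephb3 with Ephb4 (r = 0.62, and 0.64 within the groups). The order differed within the groups, where Efna5 with Epha2 was the highest (0.70) and Efna1 with Epha3 the most negative (-0.62). Efna1 with Epha2 was at 0.32 over the 36 libraries and at -0.53 within the groups. These correlations are across libraries that share groups, depth and scaling, and are given as a description.

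The other 3 receptors passed the test against mono-culture with none of the lines. Ephb4 (ENSMUSG00000029710, chr5:137350109-137378669, plus strand), which encodes the receptor of ephrin-B2 known from blood vessel formation, was the steadiest of the 10 genes. It held 96.3, 97.8, 96.0 and 103 CPM in mono-culture, and the group means ran from 92.0 ± 8.21 CPM with clone H to 112 ± 7.64 CPM with clone T (SD, n = 4), a ratio of 1.22. Its log2 fold changes ran from -0.10 to 0.19, each with an SE of 0.10.
Epha3 (ENSMUSG00000052504, chr16:63543534-63864175, minus strand), which encodes a receptor of A-type ephrins often found in mesenchymal cells, held 19.3, 17.2, 13.5 and 15.6 CPM in mono-culture. Clone E libraries held 39.3, 32.5, 20.6 and 19.1 CPM and KPC1 libraries 7.17, 8.32, 13.2 and 11.1 CPM, the highest and the lowest mean. Their log2 fold changes were 0.77 ± 0.32 and -0.72 ± 0.33 (edgeR adjusted p = 0.063 and 0.056). All 4 KPC1 libraries lay below mono-culture, and the KPC1 difference lay at the threshold: it passed under 8 of 11 alternatives, with edgeR, DESeq2 or limma adjusted p from 0.0064 to 0.11 over the 11. The clone E difference passed under 3 of 11 (adjusted p 0.021 to 0.15). Clone K libraries, 20.1 to 32.7 CPM, all lay above mono-culture and did not pass either (0.56, adjusted p = 0.23). In clone V the libraries spread from 9.15 to 38.9 CPM. When each line kept its 2 libraries of lowest epithelial sum, Epha3 passed with clone V (0.77, edgeR adjusted p = 0.040) and for the mean of the clones (0.56, adjusted p = 0.036). The clone V libraries kept were replicates 1 and 2, at 16.8 and 38.9 CPM, and replicate 1 lay within the mono-culture range. Within the lines Epha3 fell as the epithelial sum rose (r = -0.50, positive in 0 of 8).
Ephb2 (ENSMUSG00000028664, chr4:136647539-136835988, minus strand), which encodes another receptor of B-type ephrins, was the lowest of the 10 genes at 9 to 115 counts per library. Mono-culture libraries held 2.53, 2.25, 2.13 and 4.29 CPM, those with clone T 5.78, 3.73, 4.80 and 1.94 CPM and those with clone V 1.27, 1.20, 1.74 and 2.21 CPM. Mono-culture replicate 4 stood above the other 3, within the range of clone T. The SE of its log2 fold changes was 0.38 to 0.40, and at this depth differences of -0.77 (clone E) and -0.82 (clone V) did not pass (adjusted p = 0.14 and 0.077). That for clone V passed under 4 of 10 alternatives.

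Differences among the 7 clonal co-cultures, which do not involve the mono-culture libraries, were tested with 1 edgeR F-test per gene. Of the 10 genes, 7 passed, beside 67.5% of all genes tested. Ephb3 had the smallest adjusted p (2.3e-07), with means from 45.0 ± 13.9 CPM (clone V) to 105 ± 17.4 CPM (clone K; SD, n = 4). Epha2 ranged from 62.4 ± 8.19 CPM (clone M) to 192 ± 44.3 CPM (clone V; adjusted p = 4.0e-05) and Efnb2 from 97.1 ± 14.9 CPM (clone T) to 184 ± 38.1 CPM (clone V; adjusted p = 2.5e-04). Clone V was thus at an extreme of each of the 3.
Efnb1 ranged from 18.7 ± 2.73 CPM (clone N) to 30.6 ± 2.80 CPM (clone M; adjusted p = 5.2e-04) and Efna1 from 9.99 ± 1.91 CPM (clone K) to 19.6 ± 3.14 CPM (clone T; adjusted p = 5.7e-04). Epha4 ranged from 6.02 ± 2.71 CPM (clone V) to 20.2 ± 1.46 CPM (clone N; adjusted p = 0.0012), the lines with the lowest and the highest epithelial sum, 101 ± 87.6 and 537 ± 102 CPM (SD, n = 4). Ephb2 also passed (adjusted p = 0.011). Efna5, Epha3 and Ephb4 did not (adjusted p = 0.074, 0.12 and 0.097).
In the order of the 9 group means, neighbours mostly could not be separated. The libraries of neighbouring groups overlapped at each of the 8 steps for 7 genes. The exceptions were clone V above clone K for Efnb2, clone V above mono-culture for Epha4, and mono-culture above clone T for Ephb3.

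KPC1 was also compared with the mean of the 7 clonal co-cultures. Of the 10 genes, 4 passed (2 higher and 2 lower), beside 41.1% of all genes tested. Efna1 and Epha2, a ligand and its receptor, were higher with KPC1, at log2 fold changes of 0.53 ± 0.13 and 0.63 ± 0.19 (SE; edgeR adjusted p = 0.0016 and 0.0078). Epha3 and Ephb3 were lower, at -1.09 ± 0.27 and -0.73 ± 0.13 (adjusted p = 0.0017 and 8.0e-05). The Epha2 call was lost without KPC1 replicate 1 or 2 (0.51 and 0.47, adjusted p = 0.072 and 0.089) and with the 2 libraries of lowest epithelial sum per line (0.43, adjusted p = 0.18). Epha4 and Efnb1, higher with each line against mono-culture, were at -0.03 and 0.05 here (adjusted p = 0.93 and 0.76).

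Levels were compared between genes per length, as RPKM, over the 22 ephrins and Eph receptors of the table. In mono-culture the order began with Ephb4 (23.7 ± 1.05 RPKM), Efnb2 (22.4 ± 2.56), Ephb3 (16.9 ± 1.07) and Epha2 (16.1 ± 1.63; SD, n = 4). Epha2 stood below Ephb4 with clones E, K and M too. With clone N it was close to Ephb4 (24.8 ± 3.90 against 24.4 ± 1.92 RPKM), and with clone V it was the highest at 47.9 ± 11.1 RPKM. Over the 36 libraries together the means of the other genes were 8.89 RPKM for Efna1, 6.71 for Efnb1, 3.48 for Epha3, 2.33 for Efna5, 1.88 for Epha4 and 0.254 for Ephb2. Epha5, Epha6, Epha8, Epha10 and Ephb1 had 1 to 36 counts in all over the 36 libraries and were not tested.
Epha2 made up 64.5% ± 2.42 of the summed EphA RPKM in mono-culture, 60.2% ± 3.94 with clone M, 87.4% ± 5.77 with KPC1 and 87.8% ± 5.01 with clone V (SD, n = 4). The EphA sum itself was 24.99 ± 2.41 RPKM in mono-culture and 54.3 ± 10.5 RPKM with clone V. The EphB sum was 43.5 ± 1.85 RPKM in mono-culture, 52.2 ± 5.72 with clone K and 31.8 ± 6.77 with clone V. The EphA mean was above the EphB mean with clone V, with clone H (43.9 ± 10.4 against 33.7 ± 1.78) and with KPC1 (47.4 ± 15.6 against 32.3 ± 3.41). It was below the EphB mean in mono-culture and with the other 5 clones, though close to it with clone T (41.7 ± 6.57 against 44.1 ± 7.31).
Epha4 made up 1.61% ± 0.243 of the EphA sum in mono-culture and 9.25% ± 1.38 with clone N. Efnb1 made up 14.3% ± 2.54 of the ephrin-B sum in mono-culture and 27.5% ± 3.02 with clone M, and Efna1 26.5% ± 4.06 of the ephrin-A sum in mono-culture and 46.2% ± 6.85 with KPC1. These shares were not tested.

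**Figure D5:**
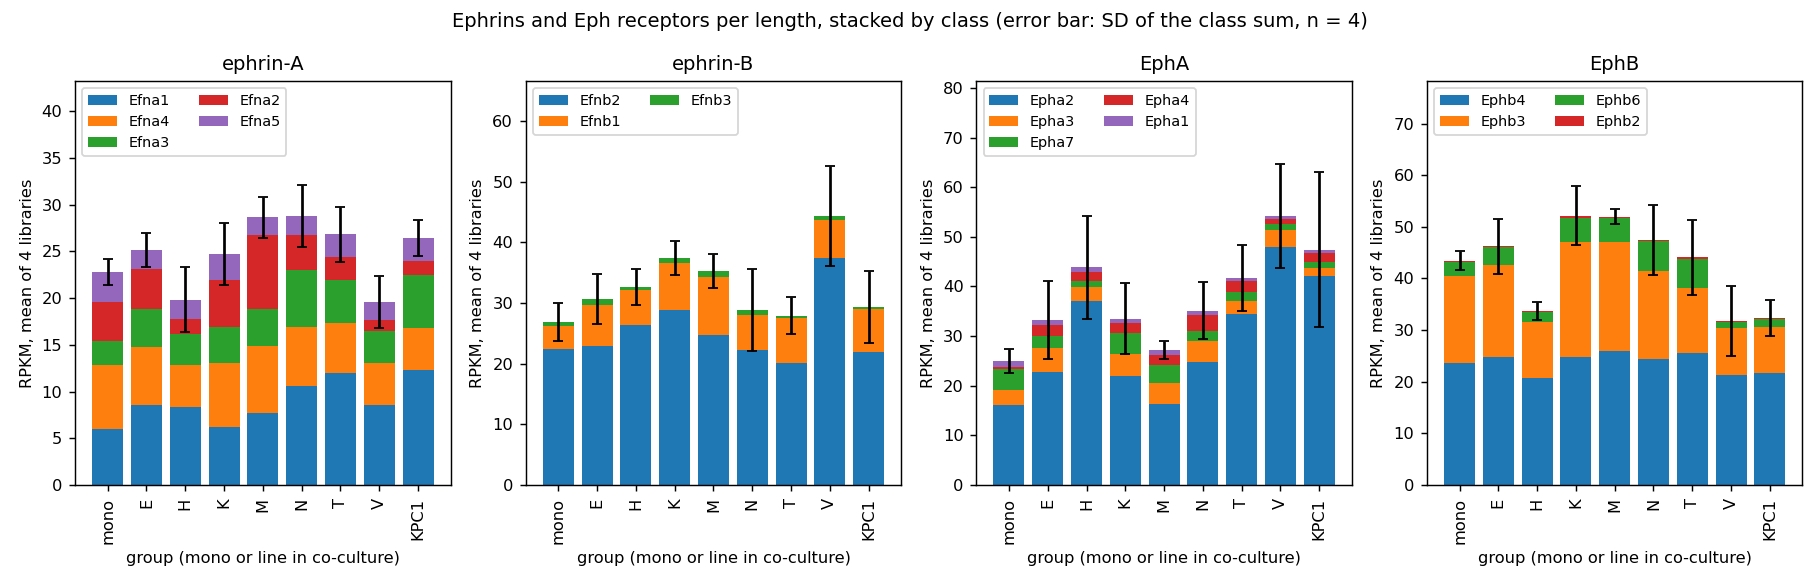
Mean RPKM of the ephrins and Eph receptors (vertical axis, from 0) stacked within each class in the 9 groups; genes with a mean under 0.1 RPKM are left out, and error bars are the SD of the class sum (n = 4). Epha2 is the largest part of the EphA class in every group, and the EphA stack is highest with clone V (54.3 RPKM).

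Of the 4 other ephrins, Efna3 (ENSMUSG00000028039, chr3:89313899-89322965, minus strand), which lies near Efna1 on chromosome 3 and encodes another lipid-anchored ligand, was higher with 7 lines. With clone N it stood at 14.4 ± 2.78 CPM, against 5.82 ± 0.774 CPM in mono-culture (SD, n = 4), and for the mean of the clones its log2 fold change was 0.74 ± 0.17 (edgeR adjusted p = 5.6e-04). Efna4 (ENSMUSG00000028040, chr3:89333390-89338028, minus strand), also in that stretch, was lower with 3 lines, clones H and V and KPC1 (-0.50, -0.50 and -0.51). With clone V and KPC1, Efna1 and Efna3 were thus higher and Efna4 was lower. Efna2 was higher with clone M (0.93) and lower with 4 lines, down to -1.68 with clone V, and Efnb3 passed with none (0.39 for the mean of the clones).
Of the 8 other Eph receptors, 3 passed the filter on low counts. Epha7 fell with 6 lines, from 27.5 ± 3.72 CPM in mono-culture to 7.64 ± 2.40 CPM with KPC1, and its log2 fold change for the mean of the clones was -0.95 ± 0.17 (edgeR adjusted p = 2.0e-05). Its fall was thus opposite to the rise of Epha4, a receptor of the same class. Epha1 was lower with 3 lines. Ephb6, a receptor without kinase activity, was higher with clones N and T (1.18 and 1.12) and lower with clone V (-1.14), and it moved with the epithelial sum within the lines (r = 0.62, positive in 8 of 8).

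Downstream genes were taken from 3 lists of pathway components. Of 21 genes of forward signalling, 9 passed for the mean of the clones, 8 higher and 1 lower, and the median of the 21 log2 fold changes was 0.26, beside 49.2% of all genes passing and a median of 0.0058. Vav3, an exchange factor, rose from 2.85 ± 0.362 CPM in mono-culture to 9.36 ± 1.67 CPM with clone N, at a log2 fold change of 1.05 ± 0.17 for the mean of the clones (adjusted p = 9.0e-06), and it was higher with 7 lines. Rock2, a kinase that drives contraction, was higher with 8 lines (0.67 ± 0.10, adjusted p = 1.6e-06). Nck1, an adaptor that links receptors to actin, was lower with 8 lines (-0.36 ± 0.07, adjusted p = 1.2e-04), below mono-culture in 28 of 28 libraries. The kinase Src was higher for the mean of the clones (0.32 ± 0.11, adjusted p = 0.014) and moved with the epithelial sum (r = 0.65 within the lines, positive in 8 of 8).
Of 8 genes of reverse signalling, 6 were tested and 4 passed for the mean of the clones, 2 in each direction, beside 49.2% of all genes. The phosphatase Ptpn13 and the transcription factor Stat3 were higher (0.49 ± 0.14 and 0.45 ± 0.10, edgeR adjusted p = 0.0054 and 5.2e-04). Rgs3 and Dvl2, partners of the tail of ephrin-B, were lower (-0.60 ± 0.09 and -0.50 ± 0.05, adjusted p = 1.7e-06 and 4.7e-09). Dvl2 lay below mono-culture in 28 of 28 libraries. Stat3 moved with the epithelial sum within the lines (r = 0.61, positive in 7 of 8).
Of 11 proteases and regulators of Eph signalling, 10 were tested. For the mean of the clones 4 passed, 2 in each direction, beside 49.2% of all genes. Mmp14, a membrane protease that can cut EphA2, fell with 8 lines, from 831 ± 65.9 CPM in mono-culture to 343 ± 47.6 CPM with KPC1 (-0.97 ± 0.09 for the mean of the clones, adjusted p = 3.7e-10). Adam10, the protease that sheds ephrins, was at -0.18 ± 0.08 (edgeR adjusted p = 0.0495) and was lower with 3 lines. Cbl, a ubiquitin ligase for activated Eph receptors, was higher with 7 lines (0.80 ± 0.12, adjusted p = 3.6e-06), and Inppl1, the lipid phosphatase SHIP2 that binds EphA2, with 8 (0.30 ± 0.06, adjusted p = 5.3e-05).

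The genes whose log2 CPM was most like that of each ephrin or Eph gene were sought among 11728 genes with a mean of at least 2 CPM, by Pearson's r over the 36 libraries, which share groups and scaling. Ephb3 was closest to Tmem119 (r = 0.96) and Olfml3 (0.96), and Epha2 to Ccdc47 (0.96) and Usp36 (0.95). Epha4 was closest to Ripk4 (0.95), a kinase known from epidermal epithelium, and Mlph (0.93), and Efna1 to Rps3a3 (0.91) and Eif3k (0.90). Rps3a3 has near-identical copies, and its count is uncertain for that reason. The remaining genes had weaker partners, such as Ston1 (0.83) for Epha3, Ptch1 (0.80), the Hedgehog receptor, for Efnb1, Cstf3 (0.78) for Efnb2, Tsc22d4 (0.78) for Ephb4, Pgrmc2 (0.73) for Efna5 and Grb10 (0.62) for Ephb2.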

How the data were processed

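RNA was sequenced from mouse pancreatic fibroblasts, which in the co-cultures had been sorted away from tumour cells. Whether the mono-culture was sorted is not stated. The libraries were poly(A) and strand-specific, made from 200 ng with 14 PCR cycles and read as pairs of 76 bp. The authors deposited read counts per gene and RPKM values (reads per gene length and library depth) for the 36 libraries. Their processing notes name STAR, featureCounts, edgeR and mm10, while versions, annotation and whether the counting used strand are not given in the sources used here, so reads of overlapping antisense genes may be included. Library totals of 12532122 to 21985538 counts set the precision. The deposited RPKM values matched the counts within each gene (ratio to the library total, relative to the median, 0.999668 to 1.00023). Libraries were grouped by the labels, and the smallest chi-square per degree of freedom between libraries of a group was 5.63, so that none was merged.

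Here counts were tested with edgeR 4.0.16 (filterByExpr, TMM, quasi-likelihood F-test, all 9 groups in the fit, Benjamini-Hochberg threshold 0.05) in R 4.3.3. No replicate block was used. CPM are TMM-scaled, and log2 CPM used for correlations had a prior count of 1. Within-line correlations are of deviations from the mean of the line. The fit was tested on simulated data for clone V against mono-culture, with 200 of 14439 genes changed and 14179 left by the filter. Of the changed genes 80.0% at 2-fold and 91.0% at 4-fold were recovered, with 10 false calls. The simulated libraries were independent and the groups differed in no other gene, whereas 58.3% of genes passed with clone V in the data. The number of false calls need not hold for the data. Alternatives were DESeq2 1.42.0, RLE scaling, library size only, no filter, a minimum of 10 counts per library, a looser threshold (0.1), a replicate block, limma-trend 3.58.1 on log2(RPKM + 1) and log2(RPKM + 0.1), only the 8 libraries compared, and each library left out. A fit to the 20 libraries left when each line kept its 2 libraries of lowest epithelial sum was chosen after seeing the data.

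The ephrin and Eph genes and the other lists were chosen with earlier results of these data known. Named beside them were the other ephrins and Eph receptors that passed the filter and, of each downstream list, up to 2 genes with the highest and 2 with the lowest log2 fold change that passed for the mean of the clones, with a mean of at least 1 CPM, as well as the genes most like each by Pearson's r. Coordinates are of GRCm38, the build of mm10, and promoters are from RefSeq, where all 10 genes had an entry.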

Additional observations from a re-analysis of the deposited data

Results flagged for a closer look

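Dixon's ratio, the gap of the extreme library to its nearest neighbour over the range of the 4, passed Dixon's 95% critical value in 5 of 90 sets of libraries, against 4.5 that chance gives. For Efna5, clone M replicate 4 was low (5.44 CPM, the others 7.88 to 8.26, ratio 0.865). For Ephb4, clone M replicate 4 was low as well (99.6 CPM, the others 112 to 114, ratio 0.894). For Efnb2, clone K replicate 2 was low (118 CPM, the others 141 to 146, ratio 0.838), whereas clone V replicate 2 was high (241 CPM, the others 160.2 to 169.8, ratio 0.881). For Epha4, clone T replicate 2 was low (9.94 CPM, the others 15.05 to 15.8, ratio 0.876), and it lay above the mono-culture range.

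Levels differed among the 7 clonal co-cultures for 7 of the ephrin and Eph genes by the edgeR F-test, which does not involve the mono-culture libraries. Of all genes tested 67.5% passed the same test, so passing it alone did not set these genes apart. The adjusted p was 2.3e-07 for Ephb3, 4.0e-05 for Epha2, 2.5e-04 for Efnb2, 5.2e-04 for Efnb1, 5.7e-04 for Efna1, 0.0012 for Epha4 and 0.011 for Ephb2.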

How the results depend on the processing

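Of the log2 fold changes of the 10 genes in the comparisons with mono-culture and between lines, 998 of those under the alternatives other than leaving out a library kept their direction and side of the threshold, 35 newly passed, 21 no longer passed and 16 changed sign. When 1 library was left out the corresponding numbers were 3507, 10, 49 and 34. No value that passed the test changed sign. The cause of these shifts was not tested. With only the 8 libraries of a comparison in the fit, 5 genes passed with clone K in place of 3, and 7 with clone M in place of 3. Of all genes, 3820 passed there with clone K in place of 2763, and 4542 with clone M in place of 3320. With the 2 libraries of lowest epithelial sum per line, 2 passed with clone E in place of 4 and 3 with clone N in place of 5. In that fit 2690 of all genes passed with clone E in place of 4622, and 4240 with clone N in place of 5625. It lost 10 calls of single genes, those given beside Efna1, Efna5, Efnb1, Epha2 and Ephb3. Over the 36 fits without 1 library the number that passed was 2 to 5 with clone E (2 without mono-culture replicate 4 or clone E replicate 3) and 3 to 5 with clone N (3 without clone N replicate 3).

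With the 2 libraries of lowest epithelial sum, the sign changed for Efnb2 with clone E (-0.14), Efna1 with clone K (-0.14), Epha2 with clone M (-0.013), Epha3 with clones H and T (0.34 and 0.028) and Ephb2 with KPC1 (-0.63), and, for KPC1 against the clones, Efnb1 (-0.0094), Epha4 (0.10) and Ephb2 (-0.41). Efnb2 was at -0.033 with KPC1 and -0.0048 with clone N by library size only, at -0.050 and -0.040 on log2(RPKM + 1), and at -0.053 and -0.043 on log2(RPKM + 0.1). Epha3 with clone H was at 0.015 without a filter. On log2(RPKM + 1) the share of higher genes among all that passed was 39.4% with clone E, 41.0% with clone H, 39.5% with clone K and 39.3% with clone N, against 51.4%, 51.3%, 54.6% and 50.6% by edgeR.

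Without 1 library, values that had not passed ranged across 0. Efnb2 ranged from -0.022 to 0.16 with clone E, -0.15 to 0.20 with clone N, -0.16 to 0.0097 with clone T and -0.063 to 0.20 with KPC1. Epha3 ranged from -0.21 to 0.16 with clone H and -0.21 to 0.56 with clone V. Ephb2 ranged from -0.39 to 0.20 with clone H, -0.44 to 0.081 with clone M, -0.37 to 0.077 with clone N, -0.28 to 0.51 with KPC1, -0.26 to 0.14 for the mean of the clones and -0.12 to 0.59 for KPC1 against the clones. Efna1 ranged from -0.016 to 0.20 with clone K, Epha2 from -0.039 to 0.10 with clone M and Ephb3 from -0.0011 to 0.14 with clone N. Ephb4 ranged from -0.16 to 0.046 with clone V and -0.13 to 0.036 with KPC1. For KPC1 against the clones, Efnb1 ranged from -0.021 to 0.14 and Epha4 from -0.13 to 0.087.

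Replicate numbers were not taken to pair the libraries, since the labels do not say that a number marks a shared batch. Single correlations of same-numbered deviations ran from -0.52 to 0.70 over the 28 pairs of co-cultures. However, 22 of 32 libraries were closest to their own number, and co-culture libraries of a number stood together in the library numbering. A shared batch by number was thus not settled, and the block is given as an alternative. With the replicate block 6 genes passed with clone E (Epha2 and Epha3 in addition, at 0.48 and 0.73, edgeR adjusted p = 0.046 and 0.040), 4 with clone K (Efnb2, at 0.41, adjusted p = 0.049), 6 with KPC1 (Epha3, at -0.67, adjusted p = 0.045) and 8 among the clones, and the other counts were those given above. Calls over all genes rose as well. With the block 5349 passed with clone E in place of 4622, 3543 with clone K in place of 2763 and 9028 with KPC1 in place of 8526. Among the clones 67.5% of all genes passed without the block. The depth limits Ephb2, which dropped out under the filter of at least 10 counts in every library.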
